A study of Homo sapiens with 12 samples.

Results

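Growth factor signalling at the cell surface was followed through 5 genes, the receptor genes ERBB3, FGFR4 and EGFR and the platelet-derived growth factor genes PDGFA and PDGFB. They were taken by name from a table of 4988 mRNA genes that the authors had selected as differing between the groups. The 5 were chosen with earlier results of these data known, so that all have a row there is not a result. Tumours labelled as xenografts of Hep3B, an established human hepatocellular carcinoma line, were labelled as control or as treated with bufotalin, a toad venom steroid of the cardiac glycoside class. Each group had 3 total RNA libraries, and what the controls received is not stated. The series' design text speaks of Hep3B cells and the sample labels of xenograft tissue; dose, duration, host strain and whether each library is a separate animal are not stated in either. The p-values therefore measure the spread between these libraries, which may be technical.

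Receptor tyrosine kinases are transmembrane proteins that pair when a growth factor binds, phosphorylate each other and pass the signal to the RAS-MAPK and PI3K-AKT routes. EGFR and ERBB3 belong to the ERBB family. ERBB3 has a kinase domain of very weak activity and signals mainly through its partners, and its tail is rich in docking sites for PI3K. FGFR4 is the main fibroblast growth factor receptor of hepatocytes, where with the co-receptor beta-Klotho it answers the hormone FGF19. PDGFA and PDGFB encode chains of dimeric growth factors that are secreted by epithelial and tumour cells, among others, and act chiefly on fibroblasts, pericytes and smooth muscle cells.

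Levels are FPKM, fragment counts scaled to transcript length and to library size, which are per length and so can be set side by side between genes. A group value is the mean ± SD over 3 libraries. Fold changes are bufotalin over control from limma on log2(FPKM + 1), with SE, and a gene was called when its Benjamini-Hochberg adjusted p over 4273 tested genes was under 0.05. Of the 5 genes, 4 were called lower and EGFR was not called, while limma called 48.8% of the tested genes lower, 44.3% higher and 93.2% in either direction. Because the table was selected on these libraries, a call in it is close to the rule, and the sizes of the changes carry more information than the calls. Of 15 hepatocyte markers, 3 had a row in the table. Among them KRT8, a keratin of simple epithelia, stood at 269 to 464 FPKM in control and 455 to 647 FPKM in bufotalin libraries, and TF was listed at 0 in control and at no more than 0.0402 FPKM after bufotalin. The hepatocyte label could therefore hardly be checked on this table.

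ERBB3 (chr12:56076799-56103505, GRCh38) fell furthest. Its level was 17.3, 18.4 and 20.4 FPKM in control replicates 1, 2 and 3 and 5.01, 4.62 and 4.84 FPKM in bufotalin replicates 1, 2 and 3. The groups were well apart, and the bufotalin libraries were nearly equal to each other (coefficient of variation 4.12%, against 8.46% in control). The mean thus dropped from 18.7 ± 1.58 to 4.82 ± 0.199 FPKM, to 25.8% of control. The log2 fold change was -1.76 (SE 0.11, 95% confidence interval -2.00 to -1.51; adjusted p 1.84e-06 by limma), and 3.56% of the tested genes had a lower one. This rank holds on the log2(FPKM + 1) scale, which compresses changes at low FPKM. Called falls of at least 2-fold made up 25.9% of the tested genes on that scale and 38.5% with a pseudocount of 0.01. Among the tested genes ERBB3 moved from percentile 70.4 of level in control to percentile 36.3 after bufotalin. In bulk tissue, fewer cells that express a gene and less RNA per cell cannot be told apart, here and below.

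FGFR4 (chr5:177086905-177098144) was the other receptor that fell. It was measured at 11.5, 14.4 and 14.6 FPKM in control replicates 1, 2 and 3 and at 4.42, 3.71 and 3.48 FPKM in the bufotalin replicates. Each bufotalin library lay below each control library. The mean went from 13.5 ± 1.74 to 3.87 ± 0.489 FPKM, or 28.7% of control, with a log2 fold change of -1.57 (SE 0.13; adjusted p 6.02e-06 by limma). Its co-receptor gene KLB, which encodes beta-Klotho, had 1.53, 1.40 and 1.77 FPKM in control and 0.538, 0.581 and 0.844 FPKM in bufotalin libraries. KLB was called lower (-0.64), a call that quantile normalization removed (0.064). FGFR2, a relative of FGFR4, stayed under the minimum for testing, at 0.0352 to 0.115 FPKM in control and 0.208 to 0.432 FPKM after bufotalin.

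EGFR (chr7:55019017-55211628) had the highest level of the 5 genes in each of the 6 libraries and did not fall. It read 52.9, 27.4 and 31.8 FPKM in control replicates 1, 2 and 3 and 43.9, 44.8 and 56.8 FPKM in bufotalin replicates 1, 2 and 3. Control replicate 1 lay above 2 of the bufotalin libraries, so the groups overlapped, which happened in few genes of this table: 92.5% of the tested genes had no overlap. The means were 37.4 ± 13.6 and 48.5 ± 7.20 FPKM, and the log2 fold change of 0.41 (SE 0.23, 95% confidence interval -0.11 to 0.93) did not pass (adjusted p 0.109 by limma). The control group's coefficient of variation was 36.5%, against 3.07% to 12.9% for the other 4 genes. Without control replicate 1, EGFR was called higher, with 0.69 (adjusted p 0.00269 by limma), and without each of the other libraries in turn it was not called (0.22 to 0.48). It was also called after scaling the libraries to equal medians (0.76). The antisense gene EGFR-AS1 overlaps EGFR in RefSeq, and since no source used here states the strandedness, reads of both could not be told apart.

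PDGFA (chr7:497258-520296) showed the smallest scatter between control libraries, with 18.2, 19.1 and 19.3 FPKM. In bufotalin replicates 1, 2 and 3 it was at 9.36, 8.45 and 9.08 FPKM, so the groups were apart. The mean declined from 18.9 ± 0.579 to 8.96 ± 0.465 FPKM, to 47.5% of control, at a log2 fold change of -0.996 (SE 0.10; adjusted p 1.89e-05 by limma). Of the 4 genes that were called, PDGFA kept the largest part of its control level.

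PDGFB (chr22:39223359-39244751) was the least abundant of the 5, with 3.89, 3.61 and 3.44 FPKM in control replicates 1, 2 and 3. The bufotalin replicates had 1.49, 1.25 and 1.04 FPKM, all below the controls. The mean of 3.65 ± 0.231 FPKM dropped to 1.26 ± 0.224 FPKM, or 34.6% of control, and the log2 fold change was -1.04 (SE 0.12; adjusted p 3.02e-05 by limma). At such low levels the pseudocount compresses the change. With pseudocounts of 0.1 and 0.01, PDGFB had -1.47 and -1.54, beyond the corresponding values of PDGFA (-1.07 and -1.07). Under quantile normalization PDGFB had -0.34 and was still called (adjusted p 0.0256 by limma).

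**Figure D1:**
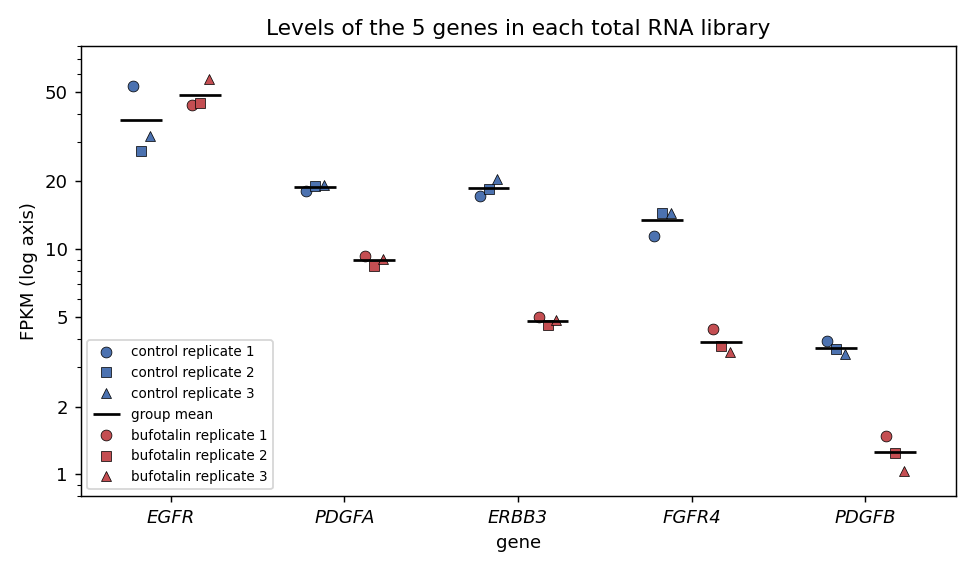
Level of each gene in each library (vertical axis: FPKM, log axis; blue control, red bufotalin; marker shape: replicate number; bar: group mean of 3 libraries). In EGFR control replicate 1, at 52.9 FPKM, lies among the bufotalin libraries, while in the other 4 genes each bufotalin library lies below each control library.

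**Figure D2:**
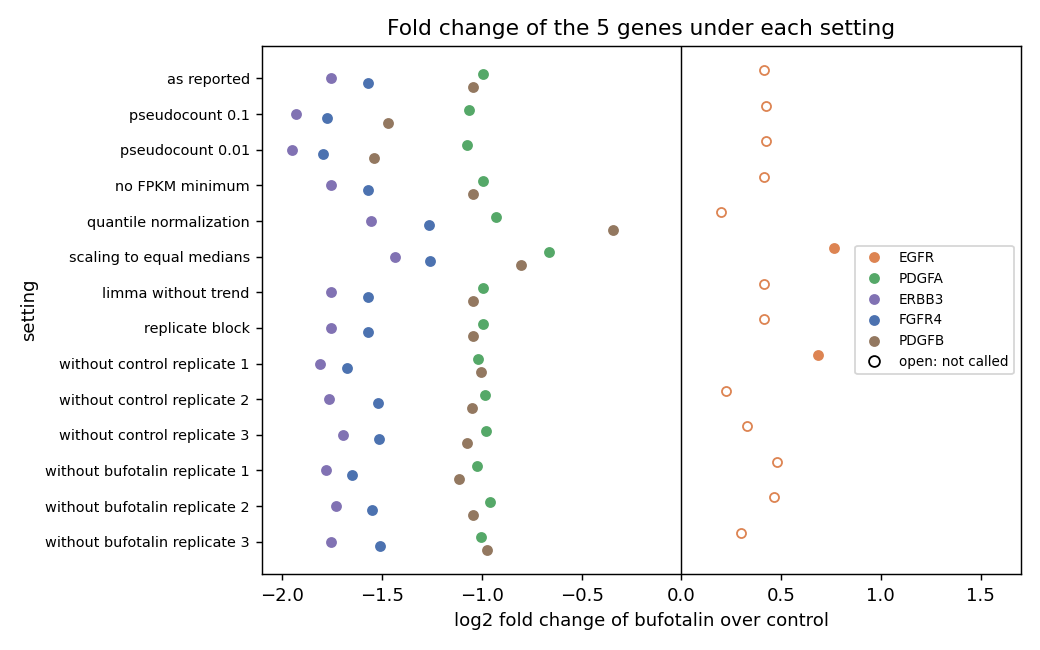
Log2 fold change of bufotalin over control for the 5 genes (horizontal axis) as reported and under each of 13 other settings (vertical axis; filled points were called at an adjusted p under 0.05, open points were not). ERBB3, FGFR4, PDGFA and PDGFB are filled and below 0 in each row, and EGFR is filled in 2 rows, scaling to equal medians and without control replicate 1.

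The order of the genes by level changed little and the distances between them changed much. In control libraries the order of the means was EGFR, PDGFA, ERBB3, FGFR4 and PDGFB. PDGFA and ERBB3 were neighbours that did not differ beyond their spread: their ratio was 1.05, 1.04 and 0.94 in control replicates 1, 2 and 3. After bufotalin the order was the same, but PDGFA stood above ERBB3 in each library, at ratios of 1.87, 1.83 and 1.88. The difference in log2 ratio was 0.88, and the groups did not overlap (exact two-sided permutation test, p = 0.1, the smallest p that 3 against 3 libraries allow; adjusted over 10 pairs of genes, 0.143). As a background for this and the following pairs, 92.5% of single tested genes had no overlap between groups. The share over pairs of genes in the table was not computed.

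EGFR stood higher relative to each of the other 4 genes in every bufotalin library. The ratio within a library does not depend on how that library was scaled. EGFR was 3.06, 1.49 and 1.56 times ERBB3 in control replicates 1, 2 and 3 and 8.75, 9.70 and 11.7 times in the bufotalin replicates. Even control replicate 1, the library with high EGFR, stayed well under the bufotalin libraries in this ratio. The log2 ratio was higher by 2.38 against ERBB3, by 2.23 against FGFR4, by 1.97 against PDGFB (0.70 under quantile normalization) and by 1.498 against PDGFA. With a pseudocount of 0.01, ERBB3, FGFR4, PDGFB and PDGFA had log2 fold changes of -1.95, -1.80, -1.54 and -1.07. EGFR had 0.42 there, without a call. The higher ratios thus mostly restate the falls of the other 4 genes, as does the share of EGFR given below. The groups did not overlap in the 4 pairs with EGFR, in a table where 92.5% of single tested genes had no overlap. Each exact permutation p was 0.1 (adjusted over 10 pairs, 0.143), so none could pass in a design of this size. As a share of the summed FPKM of the 3 receptors, EGFR made up 64.8%, 45.5% and 47.7% in control replicates 1, 2 and 3 and 82.3%, 84.3% and 87.2% in the bufotalin replicates. The summed level itself was 60.3 to 81.7 FPKM in control and 53.1 to 65.1 FPKM in bufotalin libraries, and these ranges overlapped.

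Among the 4 genes that fell, ERBB3 and FGFR4 kept close to each other. Their ratio was 1.51, 1.28 and 1.40 in control and 1.13, 1.25 and 1.39 in bufotalin replicates, with overlapping groups and a log2 difference of -0.15 (exact permutation p = 0.2). ERBB3 against PDGFB (-0.41) and FGFR4 against PDGFB (-0.25) also overlapped between groups (exact permutation p = 0.2 and 0.4). These sizes depended on the scale: on log2(FPKM + 1) they were -0.71 and -0.53, and under quantile normalization -1.22 and -0.94. FGFR4 against PDGFB was -0.41 without control replicate 1 and -0.15 without control replicate 3. ERBB3 against FGFR4 was -0.28 under quantile normalization, -0.096 without control replicate 1 and -0.081 without bufotalin replicate 1. The log2 ratio of PDGFA to FGFR4 was 0.73 higher after bufotalin and that of PDGFA to PDGFB 0.47 higher, without overlap (exact permutation p = 0.1 for both; adjusted over 10 pairs, 0.143). Under quantile normalization the first was 0.43 and the second turned to -0.51, and on log2(FPKM + 1) the second was 0.048.

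**Figure D3:**
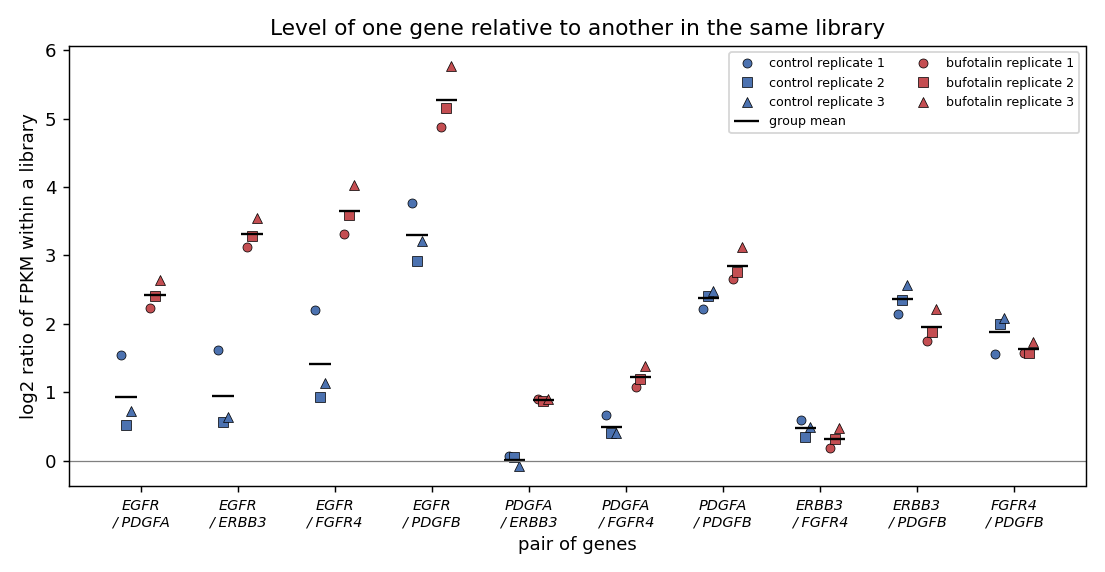
Log2 ratio of 2 genes' FPKM within each library (vertical axis) for the 10 pairs (blue control, red bufotalin; marker shape: replicate number; bar: group mean of 3 libraries). The 4 pairs with EGFR are higher in each bufotalin library, by 1.498 to 2.38 on average, while ERBB3 over FGFR4 overlaps between groups.

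Reference promoters are shown for FGFR4 and PDGFA, which fell, and for EGFR, which was not called, as the sequence next to which these transcripts start; 3 of the 5 genes matched the promoter table. Each is the 250 bases before a transcription start in RefSeq (GRCh38.p14), 5′ to 3′ on the gene's strand, at the start nearest to the gene's end in the mRNA table (10, 70 and 0 bases away). The reference held 2 windows for FGFR4, 4 for PDGFA and 2 for EGFR, and which start was used in these libraries was not measured. Capitals mark the GC box GGGCGG on either strand, a motif bound by SP-family factors. The FGFR4 window is chr5:177086665-177086914 on the plus strand, that of PDGFA chr7:520227-520476 on the minus strand, and that of EGFR chr7:55018767-55019016 on the plus strand.
FGFR4: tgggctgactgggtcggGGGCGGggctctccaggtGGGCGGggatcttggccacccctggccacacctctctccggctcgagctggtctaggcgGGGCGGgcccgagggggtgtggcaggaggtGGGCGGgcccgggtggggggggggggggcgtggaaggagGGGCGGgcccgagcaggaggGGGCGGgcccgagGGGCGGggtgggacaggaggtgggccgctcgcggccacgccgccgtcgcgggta
PDGFA: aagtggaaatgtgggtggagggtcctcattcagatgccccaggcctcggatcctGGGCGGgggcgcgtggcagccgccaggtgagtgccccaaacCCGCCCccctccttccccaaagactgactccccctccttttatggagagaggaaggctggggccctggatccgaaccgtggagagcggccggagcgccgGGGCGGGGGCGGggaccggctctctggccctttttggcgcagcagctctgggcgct
EGFR: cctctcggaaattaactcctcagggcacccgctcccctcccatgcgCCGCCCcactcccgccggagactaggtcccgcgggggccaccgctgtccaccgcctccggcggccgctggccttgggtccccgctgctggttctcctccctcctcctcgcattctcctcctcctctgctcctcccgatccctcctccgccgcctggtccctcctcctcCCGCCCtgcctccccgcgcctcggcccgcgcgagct

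The FGFR4 window held 7 GC boxes, the PDGFA window 4 and the EGFR window 2. Of 35116 windows of the same length in the reference, 42.6% held at least 1; 1.12% held as many as FGFR4 or more, 7.63% as many as PDGFA or more and 24.3% as many as EGFR or more. The G and C content was 79.6% in FGFR4, 68.8% in PDGFA and 73.6% in EGFR, where the median window had 58.0%. The letters GCGNGGGCG, a motif of EGR-family factors, were found 2 times in the PDGFA window on either strand, both times overlapping a GC box, and not in the other 2 windows; 8.41% of all windows held them. The letters TATAAA (10.7% of all windows), CCAAT (32.0%) and CACGTG (6.34%) were in none of the 3 windows on either strand. These counts describe letters in the reference, and binding was not measured.

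Other receptor tyrosine kinases went both ways. Without ERBB3, FGFR4 and EGFR, 55 receptors were listed, 12 had a row in the table and 7 were tested. Of these, 5 were called lower and 2 higher, with a median log2 fold change of -0.68 beside 0.13 over all tested genes. As a background for this and the following lists, 48.8% of all tested genes were called lower and 44.3% higher. AATK, a kinase of the LMTK family, was at 20.5 to 24.8 FPKM in control and 8.34 to 9.53 FPKM after bufotalin (-1.28). ROR2, a receptor for WNT5A, was at 12.5 to 15.5 and 5.57 to 5.86 FPKM (-1.17), and MST1R, the receptor of macrophage-stimulating protein, at 17.6 to 20.8 and 8.27 to 9.76 FPKM (-0.96). All 3 had control levels near those of ERBB3 and FGFR4. AXL, named here after its values were seen, was far less abundant, at 0.906 to 1.11 FPKM in control and 0.194 to 0.310 FPKM after bufotalin. It was called lower (-0.68), a call lost in 1 of 13 other settings. The pseudocount compresses this change: the mean of AXL fell to 24.7% of control, against 25.8% for ERBB3 and 28.7% for FGFR4. The ephrin receptor EPHA2 went the other way, from 33.3 to 37.8 FPKM in control to 78.2 to 88.9 FPKM after bufotalin (1.21). EPHA2 was above EGFR in each bufotalin library and in control replicates 2 and 3, and below it in control replicate 1.

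PDGFRB, the receptor through which PDGFB dimers act on pericytes and fibroblasts, was itself low, at 0.860, 0.918 and 1.24 FPKM in control and 0.341, 0.369 and 0.367 FPKM in bufotalin replicates. It was called lower (-0.56), a call that quantile normalization removed (-0.0028). PDGFRB is also one of 18 listed fibroblast and pericyte markers. Of these, 10 had a row, 9 were tested, 8 were called lower and none higher, where 48.8% of all tested genes were called lower. The tested marker without a call, CSPG4, went the other way, at 9.60 to 11.9 FPKM in control and 12.6 to 13.0 FPKM after bufotalin (0.25). It was called in 3 of 13 other settings. The summed level of the markers with a row was 95.4 to 102 FPKM in control and 36.7 to 42.7 FPKM in bufotalin libraries, CSPG4 included. None of them was listed at 0 in all libraries. Of 9 endothelial markers 2 had a row, with EGFL7 lower (-1.84) and CDH5 higher (0.86), and a summed level of 32.2 to 33.7 FPKM in control and 8.46 to 10.6 FPKM after bufotalin. Platelets store PDGF, and of 5 platelet markers ITGA2B had a row, with 0.269 to 0.477 and 0.0391 to 0.0552 FPKM. Of 7 leukocyte markers 3 had a row and 1, CSF1R, was tested and called higher (0.46). HBB, the only erythroid marker of 6 with a row, reached 13.4 FPKM in control replicate 3, while the other libraries had 0.367 to 0.552 FPKM. The part of any of these cell types, or of reads from the host animal, in the levels of PDGFA, PDGFB, ERBB3 and FGFR4 was not tested.

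Ligand genes other than PDGFA and PDGFB also went both ways. Of 67 listed, 12 had a row and 8 were tested, with 5 called higher, 2 lower and 1 not, and a median of 0.36. The AXL-family ligand GAS6 was lower, at 9.10 to 11.6 FPKM in control and 3.24 to 4.74 FPKM after bufotalin (-1.19). NRG4, a neuregulin that binds ERBB4, had 5.72 to 8.15 and 2.21 to 4.10 FPKM (-0.93), with -0.42 and no call under quantile normalization. The KIT ligand gene KITLG (0.57), the persephin gene PSPN (0.60), the neurotrophin gene BDNF (0.59) and VEGFA (0.37), which encodes the main angiogenic factor, were called higher. The VEGFA call was lost under quantile normalization and without control replicate 1 or bufotalin replicate 3 (0.25 to 0.33). Of the ligands that bind EGFR itself, 2 had a row, and they are named here after their values were seen. EGF was at 0.00596 to 0.102 FPKM in control and listed at 0 in the bufotalin libraries, and AREG, amphiregulin, was listed at 0 in control and at 0.147 to 0.265 FPKM after bufotalin. Both were too low to be tested.

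Of 15 listed genes that process ligands or serve as co-receptors, 5 had a row and were tested, with 3 called lower and 2 higher, in a table where 93.2% of the tested genes were called. PCSK7, a proprotein convertase of the furin family, which cuts growth factor precursors, was at 6.23 to 7.05 FPKM in control and 1.75 to 2.70 FPKM after bufotalin (-1.22). PCSK6 of the same family was higher (0.43; 0.18 and no call under quantile normalization). NRP2, a co-receptor for semaphorins and VEGF proteins, was at 2.27 to 2.58 and 0.248 to 0.370 FPKM (-1.39), the protease gene PLAT lower (-1.36) and the metalloprotease gene ADAM12 higher (0.48).

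For receptor trafficking and turnover, 7 of 21 genes had a row, with 4 called higher, 2 lower and 1 not, and a median of 0.38. PTPRJ, a phosphatase that acts on several receptors, EGFR among them, was at 18.5 to 22.1 FPKM in control and 7.79 to 9.16 FPKM after bufotalin (-1.16). SH3KBP1, an adaptor in the endocytosis of EGFR, had 1.16 to 1.69 and 0.0153 to 0.247 FPKM (-1.11). The ubiquitin ligase gene NEDD4L (0.67), LRIG3 (0.43), the phosphatase gene PTPN1 (0.38) and RAB7A, of the late endosome (0.62; 0.31 and no call under quantile normalization), were higher. CBL, the ubiquitin ligase best known for EGFR and named after its values were seen, had 0.26 without a call, and was called under quantile normalization (0.51), after scaling to equal medians (0.58) and without control replicate 3 (0.34).

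Downstream, the genes of the signalling routes went both ways. In the list of adaptors and the RAS-MAPK cascade, 8 of 36 genes had a row, with 4 called higher, 3 lower and 1 not (median 0.33). MAPK3, which encodes the kinase ERK1, was at 18.9 to 25.8 FPKM in control and 6.02 to 7.99 FPKM after bufotalin (-1.44). SRC (-1.02) and the scaffold gene KSR1 (-0.99) were lower and GRB2 (0.56), the adaptor that binds activated receptors, STAT5A (0.67) and NRAS (0.52) higher. Under quantile normalization 3 of the list were called in place of 7, and the calls of SRC (-0.31), KSR1 (-0.32) and NRAS (0.27) were among those lost.

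In the PI3K-AKT-mTOR list, 12 of 29 genes had a row, with 7 called higher, 4 lower and 1 not (median 0.29). PIK3R2, a regulatory subunit of PI3K, was at 17.4 to 19.7 FPKM in control and 4.09 to 5.91 FPKM after bufotalin (-1.66), close to the change in ERBB3. The catalytic subunit genes PIK3CB (-1.08) and PIK3CD (-0.99) and the kinase gene AKT1 (-1.21), at 22.9 to 26.1 and 9.83 to 10.8 FPKM, were the others called lower. INPPL1, a lipid phosphatase that breaks down the product of PI3K, was at 69.0 to 79.6 and 116 to 149 FPKM (0.77), and the AKT phosphatase gene PHLPP2 at 5.24 to 7.01 and 10.3 to 14.5 FPKM (0.84). The genes called higher also included TSC1 (0.68), PHLPP1 (0.32), IRS2 (0.26) and FOXO1 (0.25), named here after their values were seen. The calls of PHLPP1, IRS2 and FOXO1 were lost in 2, 7 and 7 of 13 other settings, among them libraries left out.

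Transcripts that the ERK pathway is known to induce included 6 called higher, 2 lower and 1 not, of 9 tested and 21 listed (median 0.58). Over all tested genes, 44.3% were called higher and 48.8% lower. One of those called higher was EPHA2 (1.21), which was also counted among the receptors above. DUSP4, a nuclear phosphatase of ERK and related kinases, was at 14.1 to 15.3 FPKM in control and 55.4 to 60.1 FPKM after bufotalin (1.93). DUSP5, also an ERK phosphatase, was at 24.2 to 27.9 and 52.0 to 62.6 FPKM (1.08), and FOSL1, a FOS-family transcription factor, at 3.77 to 4.12 and 7.10 to 9.34 FPKM (0.87). EGR1, an immediate early transcription factor, moved in the opposite direction, from 4.34 to 5.56 FPKM in control to 0.395 to 0.948 FPKM after bufotalin (-1.80), as did PHLDA1, with 3.80 to 4.64 and 1.28 to 1.54 FPKM (-1.13). Transcript levels do not measure the phosphorylation of receptors or of ERK.

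**Figure D4:**
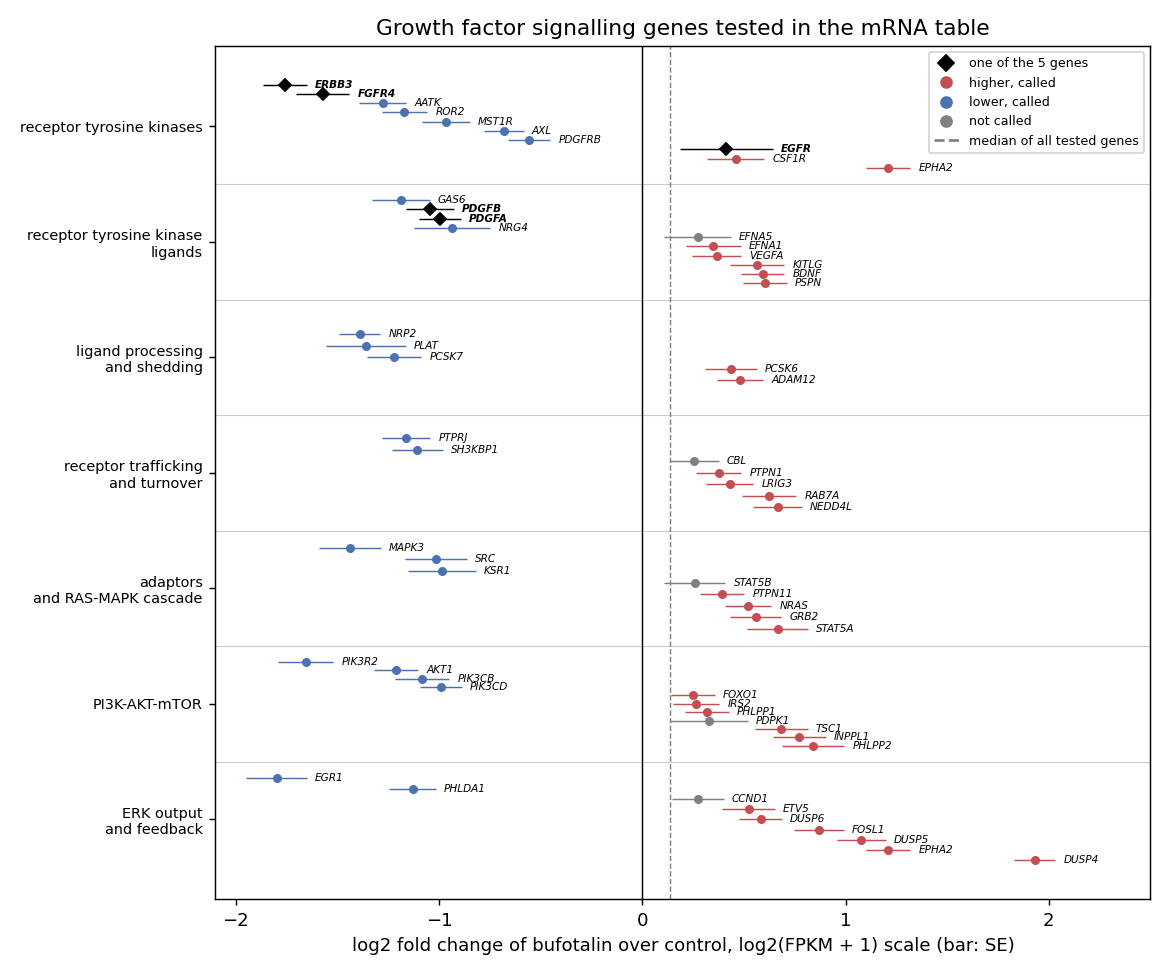
Log2 fold change of bufotalin over control (horizontal axis, log2(FPKM + 1) scale; bar: SE) for tested genes of 7 lists (1 gene is not shown), with the 5 genes as black diamonds, other genes called higher in red, called lower in blue and not called in grey; the dashed line is the median of all tested genes, 0.13. On this scale, which compresses changes at low FPKM, ERBB3 and FGFR4 are the lowest 2 receptors and EPHA2 the highest. DUSP4 is the highest gene in the plot at 1.93.

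The genes most like each member over the 6 libraries were found by the root mean square difference of log2(FPKM + 1), each gene centred on its own mean, with 3 per member. Nearest to ERBB3 were OPN3 (0.049), RAB3D (0.055) and OPLAH (0.056), and nearest to FGFR4 were SIL1 (0.073), FBF1 (0.075) and RWDD2B (0.076). For PDGFA they were PARS2 (0.028), ROBO3 (0.029) and SLC45A3 (0.032), and for PDGFB TFR2 (0.037), TMEM94 (0.045) and MPG (0.049). The pseudocount of 1 compresses changes at low levels, so likeness on this scale is not an equal fold change in FPKM. ROBO3 was at 0.983 to 1.18 FPKM in control and 0.0398 to 0.0999 FPKM after bufotalin, a far larger fall than that of PDGFA. RAB3D, at 4.09 to 5.07 and 0.665 to 0.730 FPKM, fell more than ERBB3, while OPN3, at 41.4 to 44.9 and 10.8 to 11.9 FPKM, fell about as much. Among the members, PDGFA and PDGFB differed by 0.106 and ERBB3 and FGFR4 by 0.131, while ERBB3 and PDGFA differed by 0.384. Many genes of the table were nearer still: FGFR4 was the 77th nearest gene to ERBB3, and PDGFA the 93rd nearest to PDGFB. EGFR had no neighbour as close. UBE2B (0.147), CALU (0.161) and TMEM33 (0.162) were its nearest, and like EGFR each had its highest control value in control replicate 1, at 25.2 against 16.2 and 14.7 FPKM for UBE2B. They were chosen for likeness over these same libraries, so the shared high value there follows largely from the choice. UBE2B was not called (0.43), CALU was (0.53; 0.28 and no call under quantile normalization), and the call of TMEM33 (0.49) was lost in 6 of 13 other settings.

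**Figure D5:**
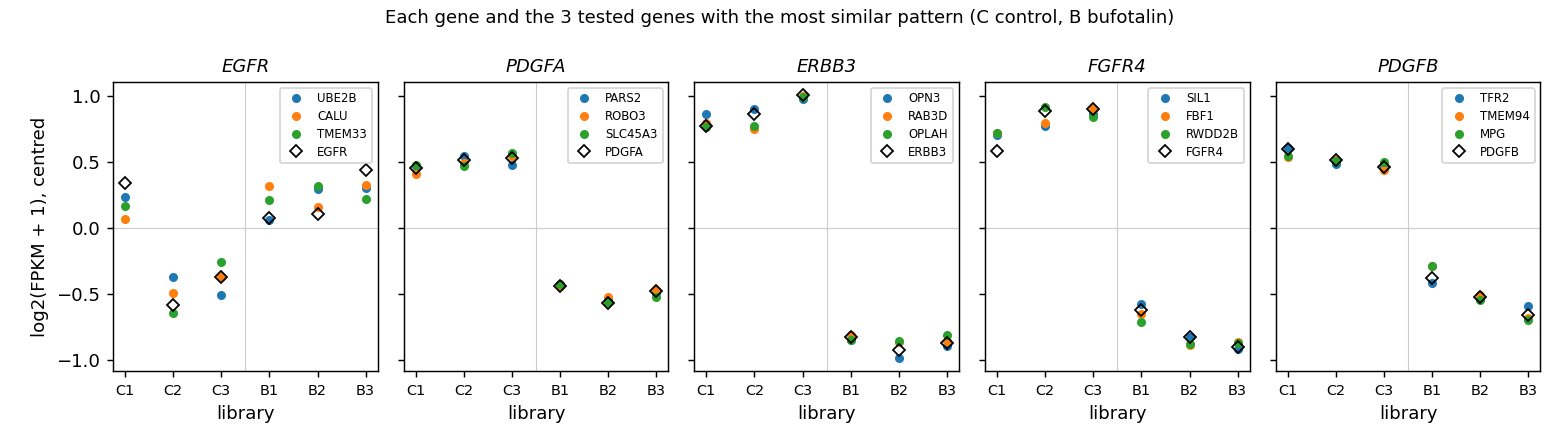
Centred log2(FPKM + 1) of each member (open diamonds) and of the 3 tested genes most like it (filled points) in the 6 libraries (C1 to C3 control, B1 to B3 bufotalin). On this scale, which compresses changes at low FPKM, the points of PDGFA and its neighbours nearly coincide, with differences of 0.028 to 0.032. Those of EGFR spread more, 0.147 to 0.162, with C1 above the other 2 control libraries in all 4 genes, which the choice by likeness favours.

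A second table held 536 transcripts counted as lncRNA, of which 465 were tested and 73.3% were called by limma. None came from the 5 genes, and 4 came from other listed genes or from genes named after them. A transcript of the ephrin gene EFNA1 was at 0.402, 0.410 and 0.409 FPKM in control and 3.07, 4.84 and 4.46 FPKM in bufotalin replicates (log2(FPKM + 0.1) scale, 3.03). The mRNA value of EFNA1, named after it was seen, was called higher by far less (0.35), and that call was lost in 4 of 13 other settings. GAS6-AS1, antisense to GAS6, was at 0.366, 0.451 and 0.509 FPKM in control and at no more than 0.00558 FPKM after bufotalin (-2.38), beside the lower GAS6. A transcript of NRP2 was at 0.258 to 0.434 FPKM in control and listed at 0 in the bufotalin libraries (called lower), beside the lower NRP2. SOS1-IT1 was at 2.66 and 2.49 FPKM in control replicates 1 and 2 and listed at 0 in the other 4 libraries, without a call, and it was called without control replicate 3.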

How the data were processed

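Total RNA was sequenced in 3 control and 3 bufotalin libraries. Of mRNA genes and lncRNA transcripts, the authors deposited FPKM only for those selected as differing, by a rule that no source used here states. Tools listed in the submitters' processing notes were DESeq2 1.20.0, featureCounts 1.5.0-p3, HISAT2 2.0.5, fastp and CASAVA 1.8, with build GRCh38 and no roles. Depth was unknown: of 231 ratios of FPKM values under 0.1 between bufotalin replicates 1 and 2, the commonest occurred 9 times (to 3 decimals), so whole reads were not recovered. Library sums were 102677 to 121337 FPKM over the table. Small RNA values were not used.

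mRNA values were compared with limma 3.58.1 in R 4.3.3 (trended, robust eBayes, two-sided, Benjamini-Hochberg over all tested genes) on log2(FPKM + 1); genes whose mean over 6 libraries was under 0.5 FPKM were left out. For lncRNA the pseudocount and the minimum were both 0.1 FPKM. The fit was checked on simulated data with 200 of 4273 genes changed by a log2 fold change of 1, of which 182 were recovered, with 14 false calls. Far fewer genes changed there than were called in the real data, a setting that the check does not cover. Ratios between members within a library were compared by exact permutation tests with scipy 1.17.1, adjusted over 10 pairs. Alternatives covered the pseudocount, the FPKM minimum, quantile normalization, scaling to equal medians, the trend, the replicate block and each library left out. Gene lists were matched by Ensembl identifier, and 4968 of 4988 genes matched a symbol. Python 3.11.15, numpy 2.4.6, pandas 2.3.3 and matplotlib 3.10.9 were also used. The members and lists were chosen with earlier results of these data known. Named genes were the members, for each list up to 6 genes (relatives of the members first, then by smallest adjusted p) and the 3 genes nearest in pattern to each member; other named genes, markers included, were chosen after their values were seen. Some listed genes are not reported here.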

Additional observations from a re-analysis of the deposited data

How the results depend on the processing

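ERBB3, FGFR4, PDGFA and PDGFB kept their direction and their call in all 13 other settings, with log2 fold changes of -1.95 to -1.44, -1.80 to -1.26, -1.07 to -0.66 and -1.54 to -0.34. EGFR stayed above 0 in all of them and was called in 2: after scaling to equal medians (0.76) and without control replicate 1 (0.69, the highest of 0.22 to 0.69 over the libraries left out). Scaling to equal medians moved the median log2 fold change of all tested genes from 0.13 to 0.49. Under quantile normalization the FPKM of PDGFA relative to PDGFB turned from 0.47 to -0.51, KLB from -0.64 to 0.064 and STAT5B from 0.26 to -0.018 (neither was called there), 0 genes were called among FGFR4 partners in place of 1, and 3 among adaptors and the RAS-MAPK cascade in place of 7; the cause was not tested. Values of single list genes under these settings were added after seeing the data. The other 9 pairs of members kept their direction in each setting, and several changed in size, while PDGFA relative to PDGFB was 0.048 on log2(FPKM + 1). Whether the replicate numbers pair the libraries is not stated, and no shared shift was seen: deviations from the group means of same-numbered libraries correlated at -0.02, 0.03 and -0.05 across 4273 genes. Such values cannot exclude a pairing. With the replicate block 3957 genes were called in place of 3981 and no call among the 5 genes changed. EGFR was not called at an SE of 0.23, while PTPN1, with a log2 fold change of 0.38, was called. Depth was unknown, so counting error could not be set beside the spread between libraries.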
